A study of Mus musculus with 6 samples.

Results

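Messenger RNAs of the proteins that build the cytosolic ribosome were measured in mouse Th17 cells, the helper T cells that make IL-17, after culture with 2-deoxyglucose (2DG) or with vehicle. Members were found by gene symbol: Rpl or Rps followed by a number, with an optional a, x or l, plus Rplp0, Rplp1, Rplp2 and Rpsa, and no pseudogenes. The rule found 81 loci of 23203 in the deposited table, 49 of the large subunit and 32 of the small subunit. Of the 81, 4 are paralog copies of another member (Rpl3l, Rpl10l, Rpl39l and Rps27l), and the other 77 are ribosomal proteins in their own right. Both groups were naive CD4 T cells. For 48 h they received the cytokines IL-23 at 10 ng/ml, IL-6 at 20 ng/ml and TGFb1 at 2.5 ng/ml, with anti-CD28 at 1 µg/ml and plate-bound anti-CD3e at 10 µg/ml. The 2DG group also received 250 µM 2DG, a glucose analogue used against glycolysis, and the vehicle group received DMSO. The labels give no strain, sex or age, and no genetic change. Each group had 3 libraries, and the labels do not say that these came from separate animals or cultures, so p-values measure only the spread between libraries, which may be technical.

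A cytosolic ribosome joins a small subunit, which reads the messenger RNA, to a large subunit, which forms the peptide bond, and nearly all of its proteins are present as a single copy. In mammals the messenger RNAs of ribosomal proteins begin with a terminal oligopyrimidine (TOP) tract, through which the growth kinase complex mTORC1 and the RNA-binding protein LARP1 control their translation and stability. T cells that are activated through their receptor grow and divide quickly and make many new ribosomes.

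No ribosomal protein locus passed the threshold in either direction with 2DG. Most of the well-expressed ones had a slightly higher mean with 2DG, but the members' median level per library overlapped between the groups. Rps12, Rpl24 and Rpl10, all listed at low levels, were lower in all 3 2DG libraries than in any vehicle library. Such loci made up 3.95% of the members tested, against 11.8% of all loci tested. The large and the small subunit gave similar medians. Between loci, levels differed by over 3 orders of magnitude, and those listed under 10 FPKM had a higher median share of sequence in common with other annotated genes than those at 1000 FPKM or more.

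Values were FPKM, which divide the fragments of a locus by transcript length and by the mapped fragments of the library, so levels are compared between genes per length. The 75th percentile of all loci lay between 10.9 and 11.6 FPKM in every library. The depth in reads is unknown. Relative depths read from low values were 1.1, 0.597 and 0.843 for 2DG replicates 1 to 3, and 1, 0.414 and 0.603 for vehicle replicates 1 to 3. These are rough, since only 13.1% to 22.6% of the ratios behind them lay within 0.05 log2 units of the estimate. The precursor of ribosomal RNA, Rn45s, read 7186 FPKM in 2DG replicate 1 and 12874 FPKM in vehicle replicate 1, and was listed at 0 in the other 4 libraries. The 7 CD4 T cell and Th17 markers, of which Il17a was called higher by limma, summed to 2782 to 3415 FPKM in the 2DG libraries and 2218 to 2381 FPKM in the vehicle libraries. The 5 B cell markers summed to at most 2.25 FPKM in the 2DG libraries and 3.71 FPKM in the vehicle libraries, the 5 myeloid markers to at most 2.01 FPKM and 2.59 FPKM, and the 3 NK cell markers to 0 FPKM and at most 0.0755 FPKM, with Klrb1c and Klra8 at 0 throughout. The 2 CD8 markers summed to 2.91 to 5.51 FPKM in the 2DG libraries and 2.68 to 3.31 FPKM in the vehicle libraries.

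Over the 6 libraries, 13 members had a mean of at least 1000 FPKM, 29 lay between 100 and 1000, 15 between 10 and 100, 19 between 1 and 10, and 5 under 1 FPKM. The highest row was that of Rpl13a, a large subunit protein that in human monocytes can leave the ribosome to block the translation of selected messenger RNAs. It read 6107, 8894 and 6964 FPKM in 2DG replicates 1, 2 and 3, against 6985, 8511 and 7338 FPKM in vehicle replicates 1, 2 and 3. The groups overlapped, and replicate 2 was highest in each. This is the only one of the 81 rows that also names small RNA genes, Snord33 and Mir5121, which lie inside Rpl13a at chr7:45126864-45126947 and chr7:45126918-45126991 (GRCm38). Its value cannot be divided between the ribosomal protein and the small RNAs, and it was left out of the summed levels.

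Loci that name a single gene followed. Rpl8, which lies next to the peptidyl transferase centre, read 2729.9, 3063 and 3031 FPKM in the 2DG libraries, against 2994, 3188 and 2749.6 FPKM in the vehicle libraries. Rplp1, a protein of the stalk that recruits elongation factors, read 2736, 3037 and 3261 FPKM in the 2DG libraries, against 2923, 3026 and 2709 FPKM in the vehicle libraries. In both loci the groups overlapped, with log2 fold changes (2DG minus vehicle) of -0.02 ± 0.13 for Rpl8 and 0.06 ± 0.13 for Rplp1 (± SE, n = 3 each). Rps9, which lies by the entry of the messenger RNA channel, read 1724, 1728 and 1821 FPKM in the 2DG libraries, against 1606, 1587 and 1521 FPKM in the vehicle libraries. The Rps9 groups did not overlap, but its log2 fold change of 0.16 ± 0.10 (± SE, n = 3 each) had an adjusted p of 0.47 (limma, Benjamini-Hochberg over 10228 loci).

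**Figure D1:**
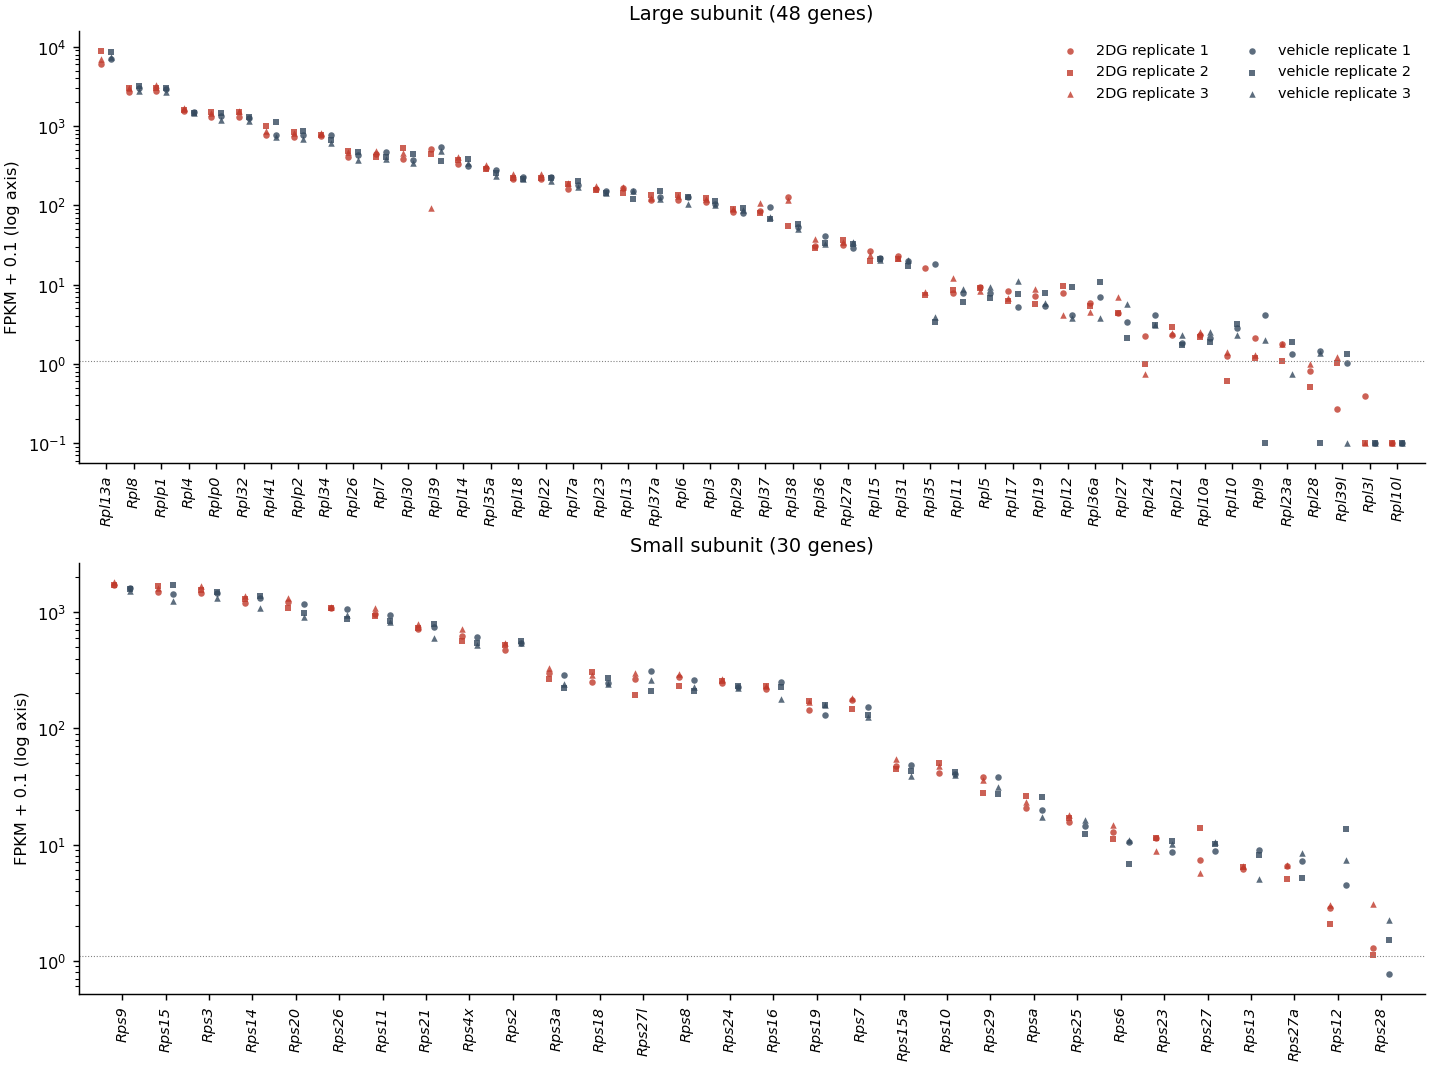
Level of 78 ribosomal protein loci in FPKM + 0.1 (log axis), large subunit above and small subunit below, ordered by mean; each point is 1 library (2DG left of vehicle, circle, square and triangle for replicates 1, 2 and 3) and the dotted line marks 1 FPKM. Levels run down from the Rpl13a row at a mean of 7466 FPKM to Rpl10l at 0, and the libraries of most loci lie close together above 10 FPKM. Visible exceptions include Rpl39, low in 2DG replicate 3 (91.1 FPKM), and Rpl38, at 128, 55.0 and 116 FPKM in 2DG replicates 1, 2 and 3.

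Other proteins of the stalk and of the small subunit were lower than Rpl8 and Rplp1. Rplp0, the base of the stalk, averaged 1428 ± 110.1 FPKM in 2DG and 1332 ± 122 FPKM in vehicle (SD, n = 3 each), and Rplp2 averaged 792 ± 56.1 FPKM in 2DG and 767 ± 90.6 FPKM in vehicle (SD, n = 3 each). Rps3, which shapes the entry of the messenger RNA channel and also takes part in DNA repair, averaged 1579 ± 114 FPKM in 2DG and 1426 ± 93.6 FPKM in vehicle (SD, n = 3 each). These 3 were named after their values were seen, as was every member below that lies outside the naming rule.

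At the other end, proteins that sit in the same particle were listed at 1 to 2 FPKM. Rpl23a, which lies at the exit of the peptide tunnel and contacts the signal recognition particle, read 1.66, 0.977 and 1.65 FPKM in the 2DG libraries, against 1.24, 1.79 and 0.640 FPKM in the vehicle libraries. Rps28, a small subunit protein near the messenger RNA exit, read 1.18, 1.02 and 2.99 FPKM in the 2DG libraries, against 0.662, 1.39 and 2.13 FPKM in the vehicle libraries. Rpl9 of the large subunit read 2.04, 1.098 and 1.21 FPKM in the 2DG libraries, against 4.01, 0 and 1.88 FPKM in the vehicle libraries. The groups overlapped in all 3, and their 95% intervals were wide. They ran from -0.40 to 0.70 for Rpl23a, from -0.60 to 0.94 for Rps28 and from -1.28 to 1.26 for Rpl9, on the log2 scale.

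Below the filter of a mean of 1 FPKM lay 5 members, which were not tested. Rpl28 read 0.718, 0.417 and 0.899 FPKM in the 2DG libraries, against 1.35, 0 and 1.26 FPKM in the vehicle libraries, and its groups overlapped. Rpl3l, Rpl10l and Rpl39l, paralog copies described below, were also among the 5.

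The low loci had more of their sequence in common with other genes. Over the 77 ribosomal proteins without the paralog copies, the share of the 50-base runs of a gene's annotated coding transcripts that also occur in another annotated gene had a median of 62.4% (19.7% to 95.1%) in the 21 genes under 10 FPKM. It was 35.5% in the 15 genes between 10 and 100 FPKM, 42.8% in the 28 between 100 and 1000, and 16.5% (0% to 60%) in the 13 at 1000 FPKM or more. With 100-base runs the medians were 51.7%, 23.5%, 23.7% and 7.74% in the same order. Spearman's correlation between level and share was -0.43 with 50-base runs and -0.57 with 100-base runs across these 77 genes. It is a description only: genes are not independent replicates, all values come from the same 6 libraries, and the sources used here give neither the read length nor the handling of reads that map to several places. Spearman's correlation between level and transcript length was 0.12.

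To show what such shared sequence looks like, 50-base stretches of coding exons are printed in lower case, 5′ to 3′ on the gene's strand, from the GRCm38 genome with GENCODE M21 exons. Each stretch is the one of its gene found, letter for letter, in the most other genes.
Rpl7a: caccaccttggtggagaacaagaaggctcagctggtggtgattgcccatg
Rps12: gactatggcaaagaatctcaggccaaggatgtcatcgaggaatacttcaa
Rpl23a: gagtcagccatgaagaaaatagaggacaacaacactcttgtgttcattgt
Rpl10: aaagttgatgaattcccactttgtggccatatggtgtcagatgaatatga
Rpl24: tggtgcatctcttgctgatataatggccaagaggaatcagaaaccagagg

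The Rpl7a stretch lies in exon 5 on the plus strand at chr2:26912379-26912428 and occurs in 45 other genes, 42 of them pseudogenes. The Rps12 stretch lies in exon 5 on the minus strand at chr10:23785224-23785273 and occurs in 22 other genes, 20 of them pseudogenes. For Rpl23a the stretch (exon 3, minus strand, chr11:78181504-78181553) occurs in 18 other genes, for Rpl10 (exon 3, plus strand, chrX:74271841-74271890) in 10, and for Rpl24 (exon 4, plus strand, chr16:55969566-55969615) in 5.

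Shared sequence and level did not go together in every gene. Rpl7a had 81.2% of its 50-base runs in common with other genes, among them 120 pseudogenes, and was listed at 159.6, 187 and 189 FPKM in the 2DG libraries, against 179, 201 and 170.5 FPKM in the vehicle libraries. Rpl21 had 19.7% in common, with 81 pseudogenes, and was listed at 2.18, 2.85 and 2.35 FPKM in the 2DG libraries, against 1.72, 1.63 and 2.23 FPKM in the vehicle libraries. The share is taken over all annotated coding transcripts of a gene, which for Rpl21 hold 2398 different runs beside a coding sequence of 480 bases. Its low share therefore does not show that little of the coding sequence is shared. Rplp1, one of the highest loci, had 60% in common. For Rps12 the share was 64.9%, for Rpl24 81.7%, for Rpl10 73.7% and for Rpl35 95.1%, while it was 6.30% for Rpl8. Genes that overlap a member at the same place, on either strand, count as other genes and can raise its share. Exons of 21 members overlap such a gene, small RNA genes aside, among them Rpl24 (Gm28037) and Rpl35 (Arpc5l and Wdr38). Their part in the shares was not measured. The level of a member with a high share is therefore uncertain, and whether shared reads play a part in it was not tested.

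**Figure D2:**
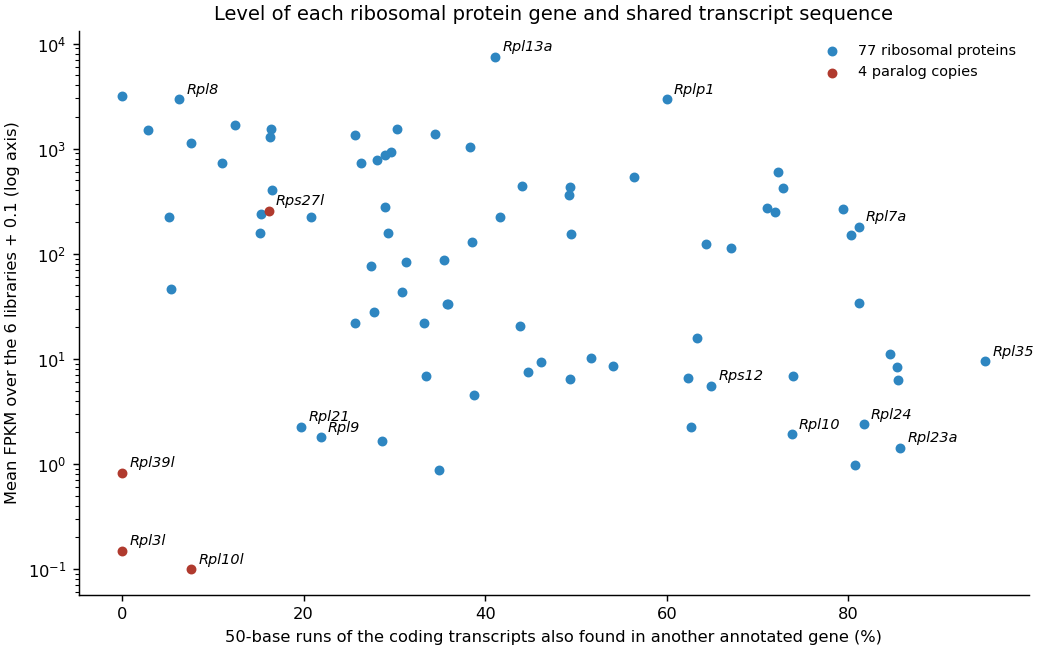
Mean level over the 6 libraries in FPKM + 0.1 (log axis) against the share of 50-base runs of each gene's coding transcripts that also occur in another annotated gene (%), with 1 point per gene, the 77 ribosomal proteins in blue and the 4 paralog copies in red. Rpl8 stands high with few shared runs and Rpl24, Rpl23a and Rpl35 stand low with many, while Rpl21 at 19.7% and Rpl7a at 81.2% lie off that trend. The share also depends on the number and length of a gene's annotated coding transcripts, which are long for Rpl21 beside its coding sequence. It includes runs of genes that overlap at the same place.

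Of the paralog copies, 3 were at or near 0 beside a partner of similar sequence, and the fourth was higher than its partner. Rpl3l, a copy used in heart and skeletal muscle, was listed at 0.298, 0 and 0 FPKM in the 2DG libraries and at 0 in all 3 vehicle libraries. Its partner Rpl3, near the peptidyl transferase centre, read 109, 124 and 122 FPKM in the 2DG libraries, against 104, 114 and 101 FPKM in the vehicle libraries. Rpl10l, a copy of Rpl10 used in the testis, was listed at 0 in all 6 libraries, the only member that was. Rpl39l, a testis copy of Rpl39, read 0.170, 0.910 and 1.11 FPKM in the 2DG libraries, against 0.932, 1.22 and 0 FPKM in the vehicle libraries. Rps27l, a target of p53 in human and mouse cells, read 268, 193 and 303 FPKM in the 2DG libraries, against 313, 209 and 261 FPKM in the vehicle libraries. Rps27 itself read only 7.26, 13.8 and 5.58 FPKM in the 2DG libraries, against 8.61, 9.96 and 10.49 FPKM in the vehicle libraries. In both the groups overlapped, so the copy was listed above its partner in every library without a difference between the groups that could be detected (95% interval of the log2 fold change -0.52 to 0.44 for Rps27l and -0.85 to 0.46 for Rps27). Rps27 had 46.2% of its 50-base runs in common with other genes and Rps27l 16.2%. The listed levels are therefore not a sure ranking, and the part of shared reads was not tested. The X-linked Rps4x, whose copy Rps4l was not analysed here, read 620.2, 570.1 and 714 FPKM in the 2DG libraries, against 613, 546 and 528 FPKM in the vehicle libraries, with a log2 fold change of 0.17 ± 0.12 (± SE, n = 3 each).

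The windows of 60 coding bases in which each pair is most alike show how far reads could be told apart. They are printed 5′ to 3′ with the bases that differ between partners in capitals.
Rpl39: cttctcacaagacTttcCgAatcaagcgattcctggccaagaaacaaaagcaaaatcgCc
Rpl39l: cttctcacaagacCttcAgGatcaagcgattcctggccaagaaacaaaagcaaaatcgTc
Rpl10: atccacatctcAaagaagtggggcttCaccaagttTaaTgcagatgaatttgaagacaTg
Rpl10l: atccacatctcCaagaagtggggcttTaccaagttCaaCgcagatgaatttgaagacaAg
Rpl3: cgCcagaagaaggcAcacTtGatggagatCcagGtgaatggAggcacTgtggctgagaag
Rpl3l: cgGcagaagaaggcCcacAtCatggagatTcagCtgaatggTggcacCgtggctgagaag
Rps27: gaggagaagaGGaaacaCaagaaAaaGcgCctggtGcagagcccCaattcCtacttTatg
Rps27l: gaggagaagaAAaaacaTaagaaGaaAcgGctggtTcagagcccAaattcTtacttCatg

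These windows differ at 4 bases between Rpl39 (chrX:37084028-37084087, minus strand) and Rpl39l (chr16:10174314-10174373, plus strand), at 5 between Rpl10 (chrX:74272915-74272974, plus strand) and Rpl10l (chr12:66283806-66283865, minus strand), at 8 between Rpl3 (chr15:80080475-80080534, minus strand) and Rpl3l (chr17:24733327-24733386, plus strand), and at 10 between Rps27 (chr3:90213209-90213268, minus strand) and Rps27l (chr9:66946864-66946923, plus strand). Over the whole aligned coding sequence, gaps included, identity was 85.0% for Rpl39 and Rpl39l, 84.7% for Rpl10 and Rpl10l and 73.1% for Rpl3 and Rpl3l. For Rps27 and Rps27l it was 60.95%, where the annotated coding sequence used for Rps27l, at 315 bases, was longer than that of Rps27 at 252 bases. The unpaired bases count as differences, so this value does not rank the pair against the others. Rpl39l and Rpl3l had 0% of their 50-base runs in common with any other annotated gene, their partners included.

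The design asks how these genes differ between Th17 cells cultured with 2DG and with vehicle. Of the 76 members tested, 45 large and 31 small, 0 were called higher and 0 lower by limma at an adjusted p under 0.05, against 1.53% and 1.19% of all 10228 loci tested (2.72% in either direction). At an unadjusted p under 0.05 there were 5 members higher (Rpl38, Rps24, Rpl35a, Rps7 and Rps6) and 3 lower (Rps12, Rpl24 and Rpl10), which is 6.58% and 3.95% of the members, against 9.07% and 8.82% of all loci. The groups did not overlap in 10 members with higher and 3 with lower 2DG values, 13.2% and 3.95%, against 11.9% and 11.8% of all loci. Counts of calls moved with the settings. Leaving the loci of small RNA genes out before the fit called 3 members lower (Rps12, Rpl24 and Rpl10), and a robust variance fit called 1 lower (Rpl10). Leaving out a single library called 1 member lower without 2DG replicate 1 (Rpl24) and 1 without vehicle replicate 1 (Rps12), 1 higher without 2DG replicate 2 (Rpl38), and 0 without any of the other 3.

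Small positive differences prevailed. The log2 fold change was above 0 in 59 of 76 members (77.6%), against 47.9% of all loci tested. The median was 0.13 over the members and -0.01 over all loci. Among loci that averaged 100 FPKM or more, 35 of 42 members (83.3%) were above 0 with a median of 0.12, against 42.5% of 858 loci with a median of -0.03. With the libraries rescaled to an equal sum outside small RNA loci, 62 members and 56.5% of all loci were above 0, and the median over all loci became 0.03. Within each library, the median log2 deviation of the members from their 6-library means overlapped between the groups. For the large subunit it was 0.0116, 0.0456 and 0.118 in the 2DG libraries, against -0.0284, 0.0208 and -0.107 in the vehicle libraries. For the small subunit it was 0.01938, 0.0314 and 0.1225 in the 2DG libraries, against 0.01943, -0.0376 and -0.137 in the vehicle libraries. Replicate 3 lay farthest from 0 in both groups. The members share the same 6 libraries, so all these values describe those libraries and no test was made over them.

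**Figure D3:**
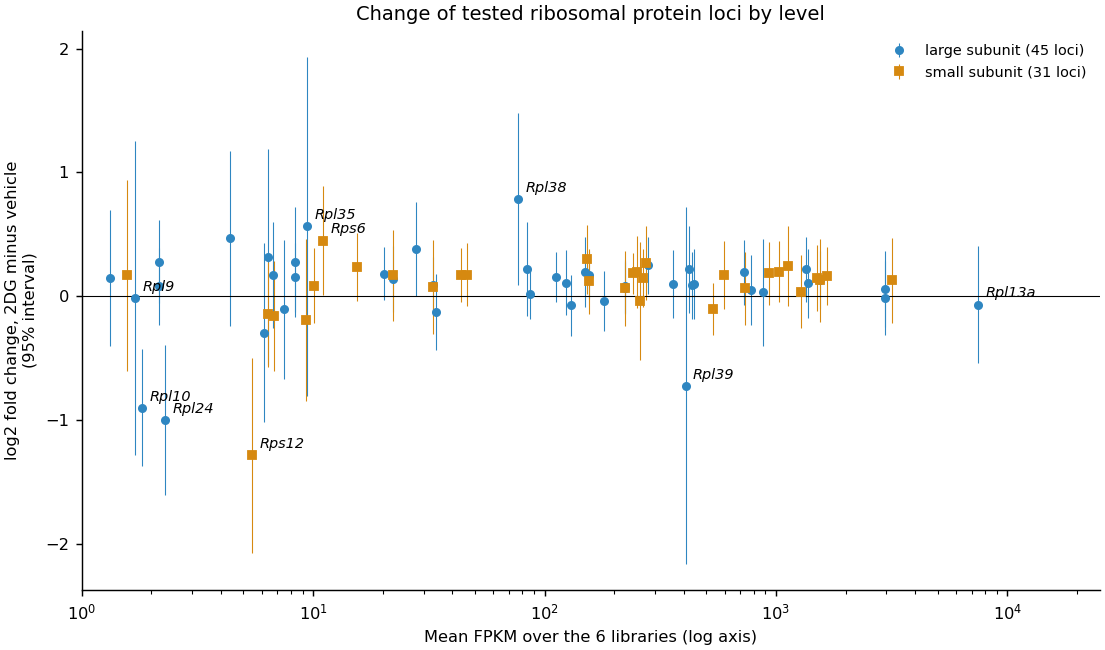
Log2 fold change (2DG minus vehicle, on log2(FPKM + 1)) with its 95% interval against mean FPKM over the 6 libraries (log axis) for the 45 large subunit and 31 small subunit loci tested, 1 point per locus. Most points above 100 FPKM lie between 0 and 0.3, Rps12, Rpl24 and Rpl10 lie lowest, with intervals below 0, at under 10 FPKM, and Rpl38 lies highest at 0.78.

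The summed level of all members outside the Rpl13a row made up 8.29%, 8.42% and 8.58% of the FPKM outside small RNA rows in the 2DG libraries, against 7.92%, 7.70% and 7.21% in the vehicle libraries. Every 2DG library was above every vehicle library, and vehicle replicate 3 was lowest. In bulk RNA, a change in the number of cells of a type and a change in RNA per cell cannot be told apart. The sum itself was 32156, 34258 and 35526 FPKM in the 2DG libraries, against 32510, 33251 and 29126 FPKM in the vehicle libraries, and here the groups overlapped, because 2DG replicate 1 was below vehicle replicates 1 and 2. The denominators were 388027, 406984 and 414208 FPKM in the 2DG libraries, against 410690, 431769 and 403923 FPKM in the vehicle libraries. The sum of the 7 CD4 T cell and Th17 markers, given above, also did not overlap between the groups, while of its members Il17f, Cd3d, Cd3g and Cd4 each overlapped. Their part in the share was not tested.

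**Figure D4:**
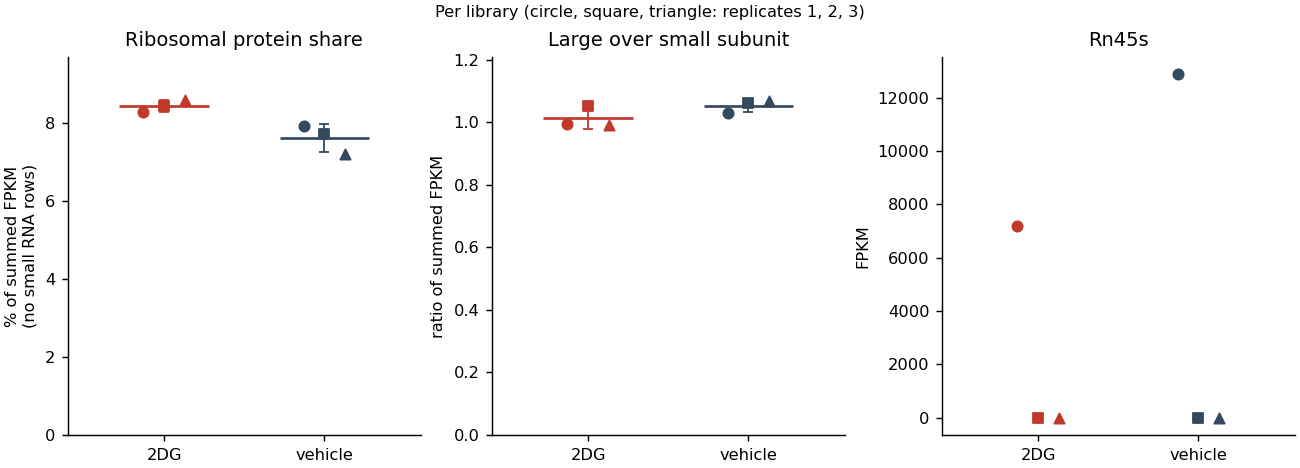
Per library, 2DG left of vehicle: the ribosomal protein share of summed FPKM outside small RNA rows (%), the ratio of summed large over small subunit FPKM, and Rn45s in FPKM, with circle, square and triangle for replicates 1, 2 and 3, and lines and bars for mean and SD of 3 libraries in the left and middle plots. The share is 8.29% to 8.58% in 2DG and 7.21% to 7.92% in vehicle, the ratio overlaps between the groups, and Rn45s is above 0 in replicate 1 of each group alone.

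The large and the small subunit were close in their log2 fold changes. The large subunit had a median log2 fold change of 0.10 (quartiles 0.01 and 0.19) with 34 of 45 loci above 0, and the small subunit one of 0.15 (quartiles 0.06 and 0.18) with 25 of 31 above 0. The difference of the medians, large minus small, was -0.05. It was -0.01 without vehicle replicate 3 and also -0.01 after quantile normalization. At a mean of at least 100 FPKM, 18 of 23 large and 17 of 19 small subunit loci were above 0. The sums outside the Rpl13a row were 16039, 17574 and 17694 FPKM for the large subunit in the 2DG libraries, against 16494, 17132 and 15042 FPKM in the vehicle libraries. For the small subunit they were 16118, 16684 and 17831 FPKM in the 2DG libraries, against 16016, 16119 and 14084 FPKM in the vehicle libraries. The ratio of large over small was thus 0.995, 1.05 and 0.992 in the 2DG libraries, against 1.03, 1.06 and 1.07 in the vehicle libraries. The sums cover 49 large subunit loci less Rpl13a, against 32 small subunit loci, so a ratio near 1 does not show equal levels per gene. The ratio overlapped between the groups through 2DG replicate 2. The mean log2 ratio differed by -0.06 (2DG minus vehicle).

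The most negative log2 fold change was that of Rps12, a small subunit protein that in Drosophila is needed for the competition between cells that differ in ribosomal protein dose. Rps12 read 2.76, 1.98 and 2.88 FPKM in the 2DG libraries, against 4.34, 13.4 and 7.21 FPKM in the vehicle libraries. The 2DG libraries were close together below all vehicle libraries, which ranged widely. Its log2 fold change was -1.29 ± 0.34 (± SE, n = 3 each) with an adjusted p of 0.10 (limma). Over the alternatives it ran from -1.68 to -0.91 with adjusted p from 0.041 to 0.24.

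Rpl24, which bridges to the small subunit and in yeast joins the large subunit late, in the cytoplasm, read 2.17, 0.907 and 0.648 FPKM in the 2DG libraries, against 4.08, 2.98 and 2.95 FPKM in the vehicle libraries. Every 2DG library was below every vehicle library. The log2 fold change was -1.0 ± 0.26 (± SE, n = 3 each) with an adjusted p of 0.096 (limma), and adjusted p from 0.043 to 0.22 over the alternatives. Rpl10, another late-joining protein by the peptidyl transferase centre, read 1.15, 0.501 and 1.31 FPKM in the 2DG libraries, against 2.71, 3.09 and 2.2 FPKM in the vehicle libraries. Here too the groups did not overlap. Its log2 fold change was -0.90 ± 0.20 (± SE, n = 3 each) with an adjusted p of 0.067 (limma), and adjusted p from 0.029 to 0.26 over the alternatives.

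The shares of 50-base runs that these 3 loci have in common with other genes, 64.9%, 81.7% and 73.7%, were above the 62.4% median of the genes under 10 FPKM. Loci with shares as high or higher had log2 fold changes of either sign. Those of Rpl35 at 95.1% and Rps6 at 84.6% were positive and that of Rpl36a at 85.5% was negative, as given below. The 95% intervals of Rpl35 and Rpl36a included 0. The pseudogenes that hold the shared runs number 22 for Rps12, 8 for Rpl24 and 14 for Rpl10. Whether reads placed on pseudogenes move with the groups was not tested.

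Rpl39, a small protein in the wall of the peptide tunnel, had a log2 fold change of -0.72 that rested on 1 library. It read 517, 443 and 91.1 FPKM in the 2DG libraries, against 538, 366 and 482 FPKM in the vehicle libraries. Only 2DG replicate 3 was low, and the other 2DG libraries lay within the range of the vehicle libraries. The adjusted p was 0.60 (limma), and without 2DG replicate 3 the log2 fold change was 0.07. Rpl36a, near the exit site for transfer RNA, read 5.74, 5.32 and 4.47 FPKM in the 2DG libraries, against 6.95, 10.6 and 3.64 FPKM in the vehicle libraries. The groups overlapped, and its log2 fold change was -0.29 ± 0.31 (± SE, n = 3 each). It was 0.02 without vehicle replicate 2 and -0.65 without vehicle replicate 3.

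The most positive log2 fold change was that of Rpl38, a large subunit protein that mouse embryos need for the translation of a subset of Hox messenger RNAs. Rpl38 read 128, 55.0 and 116 FPKM in the 2DG libraries, against 53.8, 57.9 and 50.5 FPKM in the vehicle libraries. 2DG replicates 1 and 3 were above all vehicle libraries, while 2DG replicate 2 lay among them. The log2 fold change was 0.78 ± 0.29 (± SE, n = 3 each) with an adjusted p of 0.23 (limma). Without 2DG replicate 2 it was 1.16, with an adjusted p of 0.012, and over all alternatives the adjusted p ran up to 0.60.

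**Figure D5:**
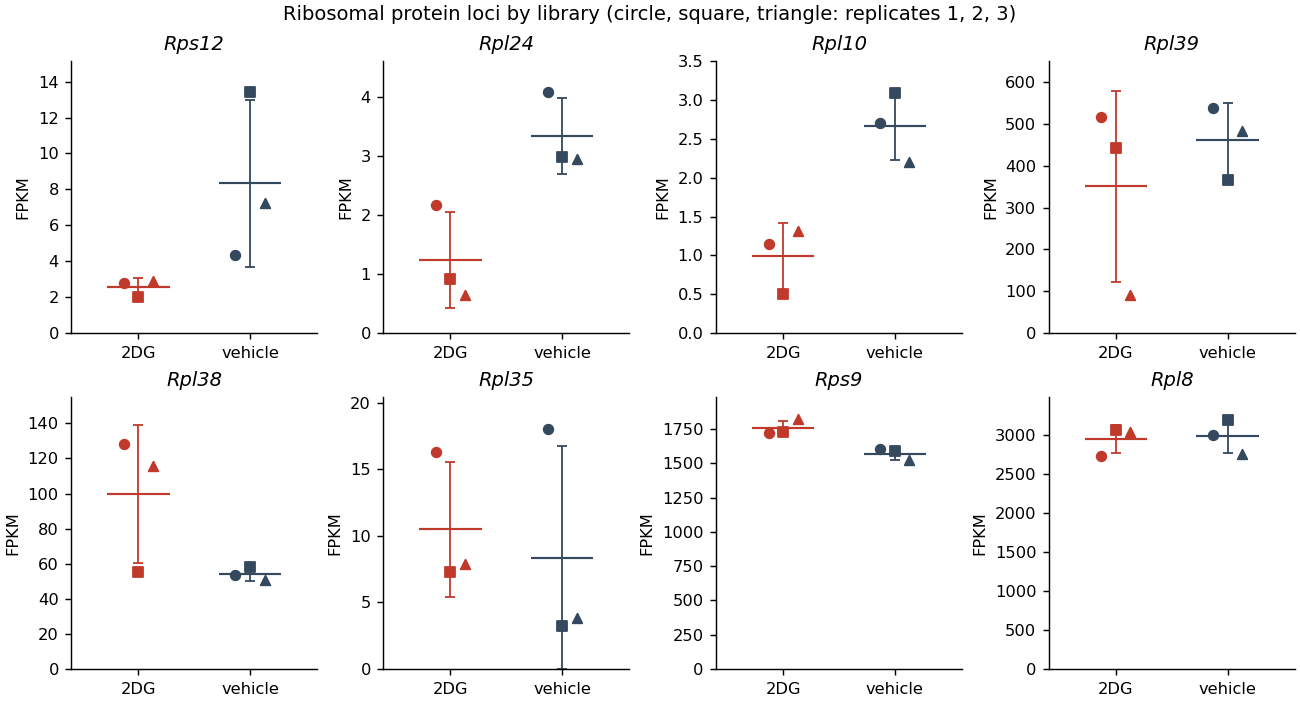
FPKM of 8 ribosomal protein loci by library, 2DG left of vehicle, with circle, square and triangle for replicates 1, 2 and 3, the line at the mean and the bar at ± SD of 3 libraries (each axis starts at 0). Rps12, Rpl24 and Rpl10 do not overlap between the groups, Rpl39 and Rpl38 each have a 2DG library apart from the other pair, Rps9 does not overlap by a small margin, and Rpl8 overlaps.

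Rpl35, at the tunnel exit, read 16.3, 7.29 and 7.85 FPKM in the 2DG libraries, against 18, 3.25 and 3.85 FPKM in the vehicle libraries. Replicate 1 was highest in both groups, and the log2 fold change was 0.57 ± 0.58 (± SE, n = 3 each). It was 1.25 without vehicle replicate 1, and 0.23 without 2DG replicate 1, 0.17 without vehicle replicate 2 and 0.27 without vehicle replicate 3. Exons of Rpl35 overlap those of Arpc5l, which has a mean of 70.3 FPKM, on the opposite strand. Of the 81 members, 18 overlap an exon of a gene on the opposite strand, and the use of strand in counting is not stated, so reads of such pairs may not be separable.

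Rpl27, of the large subunit, read 4.22, 4.33 and 6.96 FPKM in the 2DG libraries, against 3.28, 1.99 and 5.57 FPKM in the vehicle libraries, with a log2 fold change of 0.47 ± 0.30 (± SE, n = 3 each). The groups overlapped, and the log2 fold change was 0.27 without 2DG replicate 3, 0.19 without vehicle replicate 2 and 0.76 without vehicle replicate 3. Rps6, the substrate of the S6 kinases that act under mTORC1, read 12.8, 11 and 14.7 FPKM in the 2DG libraries, against 10.3, 6.64 and 10.8 FPKM in the vehicle libraries. The Rps6 groups did not overlap, by a narrow margin, and its log2 fold change was 0.45 ± 0.19 (± SE, n = 3 each) with an adjusted p of 0.27 (limma). Without vehicle replicate 2 the log2 fold change was 0.25.

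Among the higher loci the differences were smaller and the libraries closer. Rps24, a small subunit protein mutated in some families with Diamond-Blackfan anaemia, read 248, 258 and 264 FPKM in the 2DG libraries, against 225, 229.7 and 223 FPKM in the vehicle libraries. All 2DG libraries were above all vehicle libraries, and the log2 fold change was 0.18 ± 0.07 (± SE, n = 3 each) with an adjusted p of 0.24 (limma). Rpl35a, another gene of that disease, read 298, 283 and 327 FPKM in the 2DG libraries, against 277, 256 and 232 FPKM in the vehicle libraries, and its groups did not overlap. Rps7, likewise, read 175, 147 and 184 FPKM in the 2DG libraries, against 154, 131 and 125 FPKM in the vehicle libraries, and its groups overlapped through 2DG replicate 2. Rps26 read 1088, 1096 and 1104 FPKM in the 2DG libraries, against 1059, 878 and 941 FPKM in the vehicle libraries. The 2DG libraries were close together above all vehicle libraries, but the log2 fold change of 0.20 had a 95% interval from -0.05 to 0.44.

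Some members known for roles in T cells, in the p53 pathway or in anaemia had intervals that include 0. Rpl22, without which mouse alpha-beta T cells do not develop, read 213, 222 and 249 FPKM in the 2DG libraries, against 224, 221 and 201 FPKM in the vehicle libraries, with a 95% interval of the log2 fold change from -0.14 to 0.30. Rpl5 and Rpl11, which with 5S ribosomal RNA hold back the p53 inhibitor Mdm2, were both listed under 10 FPKM. Rpl5 averaged 8.78 ± 0.517 FPKM in 2DG and 7.86 ± 1.18 FPKM in vehicle (SD, n = 3 each), with an interval from -0.13 to 0.43. Rpl11 averaged 9.32 ± 2.30 FPKM in 2DG and 7.46 ± 1.44 FPKM in vehicle (SD, n = 3 each), with an interval from -0.17 to 0.72. Rps19, the gene most often mutated in Diamond-Blackfan anaemia, averaged 162 ± 15.7 FPKM in 2DG and 149.7 ± 15.7 FPKM in vehicle (SD, n = 3 each), with an interval from -0.15 to 0.38.

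The spread between libraries set how small a difference could be seen. The median coefficient of variation was 24.6% in 2DG and 28.5% in vehicle for members between 1 and 10 FPKM, 11.7% in 2DG and 11.3% in vehicle between 10 and 100, 8.37% in 2DG and 10.9% in vehicle between 100 and 1000, and 7.11% in 2DG and 9.20% in vehicle at 1000 FPKM or more. The median width of the 95% interval on either side of the log2 fold change was 0.56, 0.30, 0.27 and 0.30 in these 4 bands. Differences of the size of the members' median, 0.13, were therefore within the interval of a typical single locus in every band.

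Neighbouring genes of the same pathway were read from lists chosen by function. Over all loci tested, 2.72% were called, and 9.07% were higher and 8.82% lower at an unadjusted p under 0.05. Of the 7 ribosomal protein genes and relatives outside the naming pattern, 0 were called by limma, 1 was lower at an unadjusted p under 0.05, and the median log2 fold change was 0.05. Gnb2l1 (Rack1), a scaffold on the small subunit, read 2773, 3006 and 3055 FPKM in the 2DG libraries, against 2602, 2890.0 and 2333 FPKM in the vehicle libraries. Fau, which encodes a ribosomal protein fused to a ubiquitin-like protein, averaged 21.0 ± 3.54 FPKM in 2DG and 21.5 ± 2.01 FPKM in vehicle (SD, n = 3 each).

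Of the 18 elongation factors and other TOP messenger RNAs, 0 were called by limma, and 2 were higher (Eif3f and Eif4b) and 1 lower (Vim) at an unadjusted p under 0.05, against 9.07% and 8.82% of all loci, and the median log2 fold change was 0.11. Eef1a1, the factor that brings aminoacyl transfer RNA to the ribosome, read 2015, 2272 and 2206 FPKM in the 2DG libraries, against 1927, 2126 and 1674 FPKM in the vehicle libraries. Vim, the intermediate filament protein vimentin, had the lowest log2 fold change of the list, at 474, 616 and 490.3 FPKM in the 2DG libraries, against 748, 1036 and 799 FPKM in the vehicle libraries, a value of -0.70 ± 0.16 (± SE, n = 3 each) with an adjusted p of 0.072 (limma). Of the 9 genes of mTORC1 and LARP1 control, 0 were called, 2 were higher at an unadjusted p under 0.05 (Larp1b and Eif4ebp1), against 9.07% of all loci, and the median was -0.03. Larp1 itself averaged 45.1 ± 4.85 FPKM in 2DG and 46.8 ± 2.60 FPKM in vehicle (SD, n = 3 each). Of the 7 chaperones of new ribosomal proteins, 0 were called, 1 was higher at an unadjusted p under 0.05 (Ltv1, an assembly factor of the small subunit) and the median was 0.12. Of the 8 small nucleolar RNA host genes with a row, 0 were called, 1 was higher at an unadjusted p under 0.05 (Snhg6) and the median was 0.04. Snhg6, a non-coding host RNA, read 186, 161 and 166 FPKM in the 2DG libraries, against 130.4, 121 and 131 FPKM in the vehicle libraries, with an adjusted p of 0.053 (limma).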

How the data were processed

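The authors deposited a table of FPKM, 1 value for each locus and library, per the file headers. The submitters' processing notes name the mm10 build, the aligner TopHat2 2.1.0 and the programs Cuffnorm 2.2.1.1, Cuffdiff 2.2.1.3 and Cufflinks 2.2.1.0. The sources used here give no settings, read length, annotation, strand use or treatment of multiply mapped reads.

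FPKM are not counts, so limma 3.58.1 (R 4.3.3) was fitted on log2(FPKM + 1) over 10228 loci, those averaging 1 FPKM or more in the 6 libraries, with group as the only term, lmFit and eBayes with trend, two-sided p, Benjamini-Hochberg adjustment and a threshold of 0.05. The pseudocount of 1 understates changes of low loci. With 3 libraries against 3, an exact permutation test of a single locus cannot go below 0.1. The code was tested on simulated data.

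The members and gene lists were chosen with earlier results of these data known. Named members are the 5 largest differences in each direction, the 5 highest and 3 lowest tested levels, rows naming small RNA genes, members at 0 in all libraries, fixed paralog pairs, and anything past the threshold. Some genes that these rules pick are not reported here. Of the 81 rows, 3 name several genes: Rpl13a with Snord33 and Mir5121, Rpl30 with Gm12191, and Rpl34 with Rpl34-ps1. All 81 symbols matched GENCODE M21, which is on GRCm38 (mm10). Shared sequence was counted as exact 50-base or 100-base runs of the coding transcripts of a gene in any other annotated gene or pseudogene, on both strands. Genes that overlap at the same place were included, and copies outside the annotation were not counted. Alternatives were another pseudocount (0.1), filter (none or 5 FPKM), normalization or locus set, a replicate block, other eBayes settings, leaving out each library, and, added after seeing Rn45s, replicates 2 and 3 only. Figures used matplotlib 3.10.9.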

Additional observations from a re-analysis of the deposited data

How the results depend on the processing

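Calls among the members changed with few of the 17 alternatives. Members called lower numbered 0 in the analysis as reported, 3 (Rps12, Rpl24 and Rpl10) without small RNA loci, where all loci called numbered 514 instead of 278, 1 (Rpl10) with robust eBayes, and 0 to 1 when a library was left out (Rpl24 without 2DG replicate 1, Rps12 without vehicle replicate 1). Members called higher numbered 0 to 1 when a library was left out (Rpl38 without 2DG replicate 2). The cause was not tested. The other alternatives called 0. Leaving out a library gave medians of 0.07 to 0.14 for the large and 0.10 to 0.19 for the small subunit, a difference of -0.047 to -0.00502, and a log2 ratio of summed levels, 2DG minus vehicle, of -0.08 to -0.04. With replicates 2 and 3 only, the medians were 0.16 and 0.20, and 63 of 76 members were above 0.

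Some loci changed sign, none of them called. With a pseudocount of 0.1 Rpl9 was at 0.68. With equal sums Rpl8 was at 0.0267 and Rps27l at 0.0019, and after quantile normalization Rps27l was at 0.0667. With replicates 2 and 3 only, Rpl8 was at 0.0412, Rpl9 at 0.34 and Rps27l at 0.0484. Leaving out a library gave -1.18 to 0.0693 for Rpl39, -0.65 to 0.0183 for Rpl36a, -0.22 to 0.0534 for Rpl13a, -0.0729 to 0.0358 for Rpl8, -0.00011 to 0.13 for Rplp1, -0.0557 to 0.33 for Rpl23a, -0.14 to 0.38 for Rps28, -0.66 to 0.51 for Rpl9, -0.53 to 0.0556 for Rps27 and -0.19 to 0.15 for Rps27l.

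Both groups have samples titled 17, 42 and 43 (replicates 1, 2 and 3), and the labels do not explain these numbers, so pairing could be neither shown nor dismissed. Deviations from the group means of same-numbered libraries correlated at -0.08, 0.45 and -0.24 for replicates 1, 2 and 3, and the number was not used as a block. Replicate 1 of both groups did stand apart from the rest in Rn45s and in summed FPKM, at 1471760 in 2DG and 1469420 in vehicle, against 1808450 to 1958740 in the other 4 libraries. With the replicate block, 0 members were called higher and 0 lower, and 101 loci were called in all against 278 without it. 2DG replicate 1 correlated best with vehicle replicate 3 and 2DG replicate 3 with vehicle replicate 1, so not every library was closest to its own number. Depth is unknown, so no counting error could be given, and low loci were the least certain.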

Other observations

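Ribosomal protein genes also carry small nucleolar RNAs in their introns, which guide the chemical modification of ribosomal RNA. In GENCODE M21, 32 members hold 66 small RNA genes on the same strand, and 33 of these, in 24 hosts, had a row of their own. Of these 33, 5 were at 0 in all libraries and 28 were tested. Of the 28, 0 were called by limma, against 2.72% of all loci tested. Only 1 (Snord73a, lower) had an unadjusted p under 0.05 (limma), against 9.07% of all loci higher and 8.82% lower. The median log2 fold change of the 28 was -0.08, and 11 were above 0, against 47.9% of all loci. Snord15b, inside Rps3, read 47760, 62021 and 65945 FPKM in the 2DG libraries, against 37537, 56689 and 52751 FPKM in the vehicle libraries. Snora52, inside Rplp2, read 11836.0, 18171 and 17053 FPKM in the 2DG libraries, against 11120.4, 18027 and 14964 FPKM in the vehicle libraries. In both, replicate 1 was the lowest of its group and the groups overlapped. Both also overlap an exon of an annotated host transcript, as do Snora33 and Snord100 in Rps12 and Snora70 in Rpl10. Whether reads of such small RNAs enter the values of their hosts was not tested. FPKM divides by length, so a single fragment adds more to the value of a short gene than of a long one. Whether this accounts for the high values was not tested. Several of these small RNAs are listed at 0 in some libraries: Snord73a, inside Rps3a, was at 0 in all 3 2DG libraries, against 381, 834 and 0 FPKM in the vehicle libraries.

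Pseudogenes of members also had rows. Those of Rps15a-ps6, Rpl31-ps12 and Rps19-ps3 were low, with means of 1.23, 0.21 and 1.94 FPKM in 2DG and 0.52, 0.39 and 2.21 FPKM in vehicle. Another 2 rows, named after their values were seen, were listed about as high as the parent gene. The row of Rplp2-ps1, which it shares with Wdr89, read 855, 1014 and 1022 FPKM in the 2DG libraries, against 961, 1079 and 839.6 FPKM in the vehicle libraries, while Rplp2 read 728, 832 and 816 FPKM in the 2DG libraries, against 762, 860.5 and 679.6 FPKM in the vehicle libraries. Rps15a-ps4 read 38.7, 59.0 and 44.2 FPKM in the 2DG libraries, against 40.9, 58.5 and 40.8 FPKM in the vehicle libraries, while Rps15a read 47.8, 44.6 and 54.2 FPKM in the 2DG libraries, against 48.1, 42.5 and 39.1 FPKM in the vehicle libraries. In each of these 4 rows the groups overlapped. Replicate 2 was the highest library of both groups for Rps15a-ps4 but not for Rps15a. The value of the Rplp2-ps1 row cannot be divided between the pseudogene and Wdr89. How fragments were divided between parent and pseudogene was not tested.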
